A study of Mus musculus with 30 samples.

Results

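This account follows 8 genes of the YAP-TEAD transcription system: the coactivators Yap1 and Wwtr1 (the protein TAZ), the DNA-binding factors Tead1 and Tead2, the secreted CCN proteins Ccn1 and Ccn2, and the feedback genes Amotl2 and Lats2. All 8 of them, of 18193 genes with a symbol of their own on the array, were measured, by the 20 of 45101 probe sets that the annotation gives to exactly 1 of these symbols, and 1 further probe set shared by Lats2 and Xpo4 was left out. The genes were chosen on measured values, the set being proposed after Ccn2 and Ccn1 had been seen higher in total RNA of embryoid bodies, so the total RNA differences of the 8 genes are described and not tested. R1 is 1 established line of mouse embryonic stem cells. ESC were R1 cells held undifferentiated by the cytokine LIF, and EB were their progeny on day 5 as embryoid bodies, cell aggregates that form when LIF is withdrawn. Cells of both states were given 150 ug/ml cycloheximide for 15 min, which holds ribosomes in place on their mRNAs. The cytoplasm was spread on a sucrose gradient and the 12 fractions were joined into 4 pools. Pool RNA and unfractionated (total) RNA went onto Affymetrix mouse arrays, 2.5 ug per array. There were 10 groups of 3 arrays (total RNA and pools 1 to 4 of each state), 30 in all, from 3 cultures per state that the labels call biological replicates. The labels do not say which end of the gradient gave pool 1, so pools are named by number.

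In the Hippo pathway, MST kinases activate LATS kinases, which phosphorylate YAP and TAZ and hold them in the cytoplasm. Unphosphorylated YAP and TAZ enter the nucleus and act through TEAD proteins, which bind DNA. CCN1 (CYR61) and CCN2 (CTGF), matricellular proteins that are secreted into the extracellular matrix, are the usual readouts of YAP-TEAD activity. AMOTL2 and LATS2 are also induced by YAP-TEAD and restrain YAP in return. In the early mouse embryo, YAP and TEAD4 set the trophectoderm apart from the inner cell mass, and Tead2 is abundant in ESC and neural progenitors.

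The sequences below are shown because TEAD proteins recognise GGAATG, or CATTCC on the other strand, and Ccn1 and Ccn2 are known to be driven through such elements. RefSeq start-site windows (GRCm38.p6, 250 bases before to 50 after each start) were in the table for 6 of the 8 genes; Ccn2 and Tead1 are named only. The motif was searched on both strands and is in capitals, and positions count back from the start site, with -1 the base before it. It lay before a start site in 4 genes. The region before the Ccn1 start (chr3:145649986-145650235, minus strand) holds 1 match, with its first base at -103.
Ccn1: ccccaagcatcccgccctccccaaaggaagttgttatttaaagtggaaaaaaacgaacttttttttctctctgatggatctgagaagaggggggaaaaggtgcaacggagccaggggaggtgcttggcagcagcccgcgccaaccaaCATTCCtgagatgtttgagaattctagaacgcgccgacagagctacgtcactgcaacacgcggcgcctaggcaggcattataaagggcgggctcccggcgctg
The sites of Amotl2 (chr9:102717727-102717756, plus strand, -65), Yap1 (chr9:8004720-8004749, minus strand, -141) and Wwtr1 (chr3:57576029-57576058, minus strand, -136 or -170 from its 2 annotated starts) are given with their flanks.
Amotl2: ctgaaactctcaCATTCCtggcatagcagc
Yap1: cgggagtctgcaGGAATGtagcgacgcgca
Wwtr1: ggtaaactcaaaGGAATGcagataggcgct
Lats2 had its match after a start site, and no match lay in the Tead2 window. Of all 32851 windows, 14.7% hold the motif, and so do 16.6% of the genes with a window. These shares also count matches in the 50 bases after the start, which the count of 4 genes leaves out. A match therefore describes the letters and is no evidence of binding. Read in the direction of each gene, Ccn1 and Amotl2 carry it as CATTCC, and Yap1 and Wwtr1 as GGAATG.

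The arrays differed in total signal. Their mean linear signal ranged from 72.4 to 577.8, with 151 to 156 in ESC total RNA and 302 to 376 in EB total RNA, while the mean log2 value of the Bacillus spike-in controls stayed between 9.48 and 9.87. Most genes were therefore higher in EB on the deposited scale, by a median of 0.96 (log2) in total RNA. Differences are given on 2 scales. On the deposited scale, signal is set against the spike-in RNAs. Values relative to all genes follow quantile normalization, which gives every array of a comparison the same distribution. Total RNA differences of the 8 genes are given on both scales. Other differences between the states are relative to all genes unless the deposited scale is named, and need not hold on both. In bulk RNA, fewer cells of a type and less RNA per cell cannot be told apart. The log2 ratio of 3' to 5' Actb probe sets, a sign of RNA length and labelling, was 2.77 to 3.31 in ESC total RNA and 2.06 to 2.5 in EB, and it also differed between the states in the pools: 3.87 to 4.22 in ESC against 1.82 to 2.98 in EB for pool 1, 3.07 to 5.31 against 1.13 to 2.22 for pool 2, 1.69 to 3.59 against 0.62 to 1.67 for pool 3, and 1.34 to 3.54 against 0.46 to 1.01 for pool 4. The mean log2 value of the hybridisation controls ranged more widely than the spike-ins, from 9.60 to 13.9, and was 11.0 to 11.5 in ESC total RNA and 11.7 to 12.5 in EB. The part of these quantities in the results was not tested. The lowest correlation across genes between arrays of a group was 0.897 in ESC total RNA and 0.922 in EB total RNA. It was 0.932 to 0.972 in the pool groups other than EB pool 2. Pool 2 of EB replicate 3 stood apart, with a correlation to another array of its group as low as 0.859. For the 8 genes, the pool 2 calls relative to all genes and the differences in pool ratio are given without that replicate too.

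Ccn2 differed most between the states among the 8 genes. Its deposited signal in total RNA was 91.8, 105 and 111 in the 3 ESC cultures and 1479, 1389 and 1468 in the 3 EB cultures. The states were far apart and the EB cultures lay close together. The EB level was 11.0-fold that of ESC on the deposited scale, a difference of 3.46 ± 0.14 (log2, SE, n = 3 per state), and 2.26 ± 0.11 relative to all genes. Ccn1 had signals of 88.7, 81.0 and 88.7 in ESC and 580, 478 and 419 in EB. Its difference was 2.14 ± 0.16 as deposited and 0.92 ± 0.14 relative to all genes. Every EB value of both CCN genes exceeded every ESC value on both scales. A second Ccn1 probe set gave 2.42 ± 0.18 and 1.41 ± 0.22; the representative one carries the _x_ suffix, which Affymetrix gives to probe sets that may also detect other sequences.

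The feedback genes and the factors differed less in total RNA. Amotl2, an angiomotin family scaffold that binds YAP, had signals of 113, 138 and 160 in ESC and 534, 405 and 478 in EB, a difference of 1.58 ± 0.17 against the spike-in RNAs and 0.31 ± 0.14 against all genes. Wwtr1 had 169, 142 and 162 in ESC and 553, 495 and 534 in EB (1.56 ± 0.14 and 0.27 ± 0.12). Tead1 had 217, 226 and 206 in ESC and 891, 714 and 838 in EB (1.76 ± 0.15 and 0.48 ± 0.10). By their brightest probe sets, these 3 genes lay above the general shift, with no overlap of the states. Total RNA values of the other probe sets of Wwtr1, Tead1 and Lats2 are not given, so agreement among them is not shown. Tead2, with 247, 278 and 246 in ESC and 803, 484 and 662 in EB, lay near the general shift (1.21 ± 0.19 and -0.07 ± 0.14). Yap1 signals were 491, 553 and 553 in ESC and 1287, 962 and 1046 in EB. Its difference was 0.99 ± 0.16 as deposited and -0.24 ± 0.12 relative to all genes, so its direction depended on the scale. A second, dimmer Yap1 probe set, with ESC signals of 19.4 to 39.4 and EB signals of 104 to 140, gave 1.35 ± 0.19 and 0.54 ± 0.18, and the probe sets disagree in sign relative to all genes. Lats2 was near the low end of the arrays, with 12.8, 57.3 and 14.3 in ESC and 82.1, 44.3 and 5.17 in EB, and the states overlapped (0.27 ± 0.39 and -0.30 ± 0.41). When arrays were scaled to a common mean before the offset, Ccn2 differed by 2.45, Ccn1 by 1.17, Tead1 by 0.70, Amotl2 by 0.57, Wwtr1 by 0.53, Tead2 by 0.14, Yap1 by -0.11 and Lats2 by -0.26, so the direction of Tead2 also depended on the scaling.

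Counted over the set, all 3 EB values lay above all 3 ESC values in total RNA for 7 of 8 genes on the deposited scale, where 77.6% of 13240 genes did so. Against all genes, 5 of 8 lay above (18.6% of all genes) and 1 below, Yap1 (17.5%). The rule used this contrast, so nothing is read from these counts. Between the paired genes, the total RNA level of Ccn2 minus Ccn1 on the deposited scale was 0.18 ± 0.13 (log2, SD, n = 3) in ESC and 1.51 ± 0.22 in EB. Yap1 minus Wwtr1 was 1.57 ± 0.18 in ESC and 1.01 ± 0.15 in EB, and Tead1 minus Tead2 was -0.22 ± 0.05 in ESC and 0.33 ± 0.19 in EB. The scaling of an array nearly cancels in these differences, of which only the change between states has meaning, since levels of different probe sets are not comparable.

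**Figure D1:**
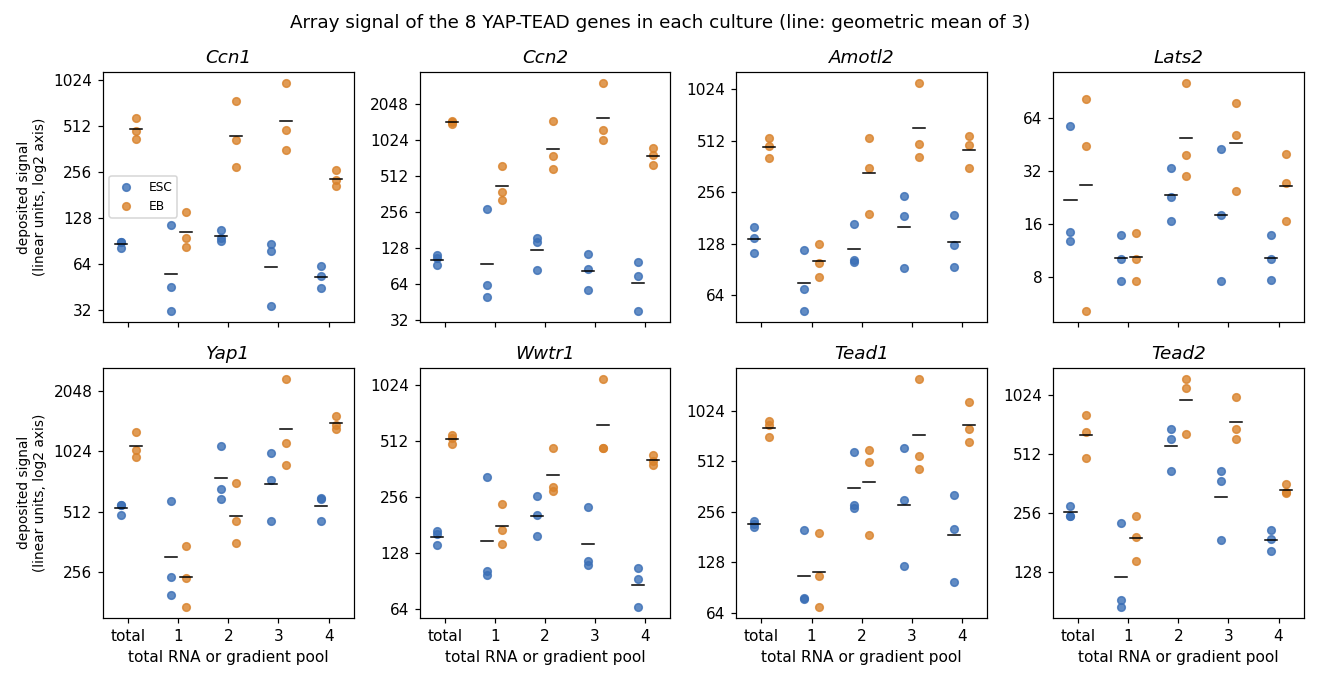
Deposited signal (linear units on a log2 axis) of the 8 genes in total RNA and pools 1 to 4, with 1 point per culture, ESC in blue, EB in orange, and a line at the geometric mean of 3. In total RNA the 3 EB points lie above the 3 ESC points for every gene but Lats2, from 1389 against 111 at the nearest for Ccn2.

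The order of the 10 group levels, by mean log2 of the deposited signal with the offset of 32, put EB pool 3 first and ESC pool 4 last for both CCN genes and for Wwtr1. For Ccn2 the 5 EB groups came before the 5 ESC groups, and the ranges of neighbours in the order did not overlap at 2 of 9 steps: between EB pool 4 and EB pool 1, and between EB pool 1 and ESC pool 2. Ccn1 had 3 such steps, Wwtr1 3 and Tead2 1. For Amotl2, Lats2, Yap1 and Tead1, the ranges of all 9 neighbouring pairs overlapped. Yap1 and Tead1 were highest in EB pool 4 and Tead2 in EB pool 2.

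In the gradient, Ccn2 and Ccn1 were also higher in EB, in pools taken from the same cultures as the total RNA and so not independent of it. In pool 3, Ccn2 signals were 115, 56.9 and 84.4 in ESC and 3083, 1024 and 1243 in EB. Ccn2 rose in all 4 pools relative to all genes, by 1.85 ± 0.16 in pool 1, 2.18 ± 0.19 in pool 2, 2.57 ± 0.14 in pool 3 and 1.79 ± 0.15 in pool 4 (limma, adjusted p = 0.00337, 0.0017, 1.81e-05 and 0.000146). Each of these calls held with any 1 culture left out. Ccn1 had 86.8, 33.8 and 77.2 in ESC pool 3 and 976, 355 and 484 in EB pool 3. It rose by 0.54 ± 0.12, 1.48 ± 0.21, 1.41 ± 0.14 and 0.50 ± 0.10 in pools 1 to 4 (adjusted p = 0.0411, 0.00688, 0.000249 and 0.00714). The Ccn1 call in pool 1 was lost with any culture left out (adjusted p = 0.055 to 0.117) and in the fit with the replicate number as a block (adjusted p = 0.0769). In pool 2 it was lost without ESC replicate 1 (adjusted p = 0.0511). Without EB replicate 3, the pool 2 differences were 2.30 for Ccn2 and 1.55 for Ccn1. Both genes led to the choice of the set in these same cultures. Their adjusted p in the pools is therefore no independent test, and nothing is read from it or from calls that held.

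Counts of calls relative to all genes were, in pool 1, 3 of 8 higher (Ccn1, Ccn2 and Tead2; 6.27% of all genes were called higher), of which the replicate block left Ccn2. In pool 2, 3 were higher (Ccn1, Ccn2 and Amotl2; 3.35%) and Yap1 lower (3.78%), and the replicate block left 3 of these 4, without Amotl2. In pool 3, 4 were higher (Ccn1, Ccn2, Amotl2 and Wwtr1; 11.7%) and Yap1 lower (11.4%). In pool 4, 4 were higher (Ccn1, Ccn2, Wwtr1 and Tead1; 15.5%) and Tead2 lower (14.6%). None was called in pool 1 on the deposited scale, where limma called 0 of 13240 genes and 361 had an unadjusted p under 0.05, Ccn2 among them. Ccn1 and Ccn2 were called higher in pool 2 (2.08%), 6 genes in pool 3 (54.9%) and all 8 in pool 4 (75.5%). In pool 2 the replicate block added Amotl2 and Tead2 to the 2 calls. Relative to all genes, Ccn1 and Ccn2 were among the higher calls in every pool. The set was proposed after these genes had been seen higher in total RNA of the same cultures. Nothing is therefore read from these counts against the shares of all genes.

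Among the other targets and factors, the brightest probe sets of Wwtr1 and Yap1 parted in the pools. Pool values and pool ratios of every gene are of its brightest probe set alone, and those of other probe sets are not given. In total RNA the second Yap1 probe set differed in sign from the brightest relative to all genes. Wwtr1 signals in pool 4 were 107, 93.1 and 66.3 in ESC and 434, 402 and 380 in EB. It rose by 0.64 ± 0.09 in pool 4 (adjusted p = 0.0012), also with any culture left out, and by 0.61 ± 0.15 in pool 3 (adjusted p = 0.0194), a call lost without ESC replicate 3, EB replicate 1 or EB replicate 2 (adjusted p up to 0.0726). Yap1 signals in pool 2 were 1090, 592 and 662 in ESC and 709, 357 and 458 in EB, overlapping on the deposited scale. After that normalization Yap1 fell by 0.94 ± 0.20 in pool 2 (adjusted p = 0.0266) and by 0.40 ± 0.12 in pool 3 (adjusted p = 0.037), where it was at 0.89 ± 0.41 on the deposited scale (adjusted p = 0.0548). The pool 2 call was lost without ESC replicate 1 or 2 or EB replicate 1 or 2 (adjusted p up to 0.131), and the pool 3 call without any culture but EB replicate 1 (adjusted p up to 0.132). In pool 4, Yap1 differed by 0.06 ± 0.09 relative to all genes (adjusted p = 0.686) and by 1.33 ± 0.16 as deposited (adjusted p = 5.79e-06).

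Amotl2 rose by 0.86 ± 0.22 in pool 2 (adjusted p = 0.0461) and by 0.43 ± 0.13 in pool 3 (adjusted p = 0.0408), relative to all genes. Its pool 3 signals were 244, 92.4 and 186 in ESC and 1113, 413 and 491 in EB. Only EB replicate 3 in pool 2 and ESC replicate 3 in pool 3 could be left out without losing these calls (adjusted p up to 0.132 and 0.127), and the replicate block gave 0.0691 in pool 2. Tead1 rose by 0.71 ± 0.23 in pool 4 (adjusted p = 0.0485), from 320, 202 and 97.0 in ESC to 1144, 666 and 792 in EB, a call that held only without ESC replicate 1 (adjusted p up to 0.165 otherwise). Lats2 was called in no pool relative to all genes. It sat at the arrays' floor in 8 of 24 pool values, so its pool values are partly bounds.

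**Figure D2:**
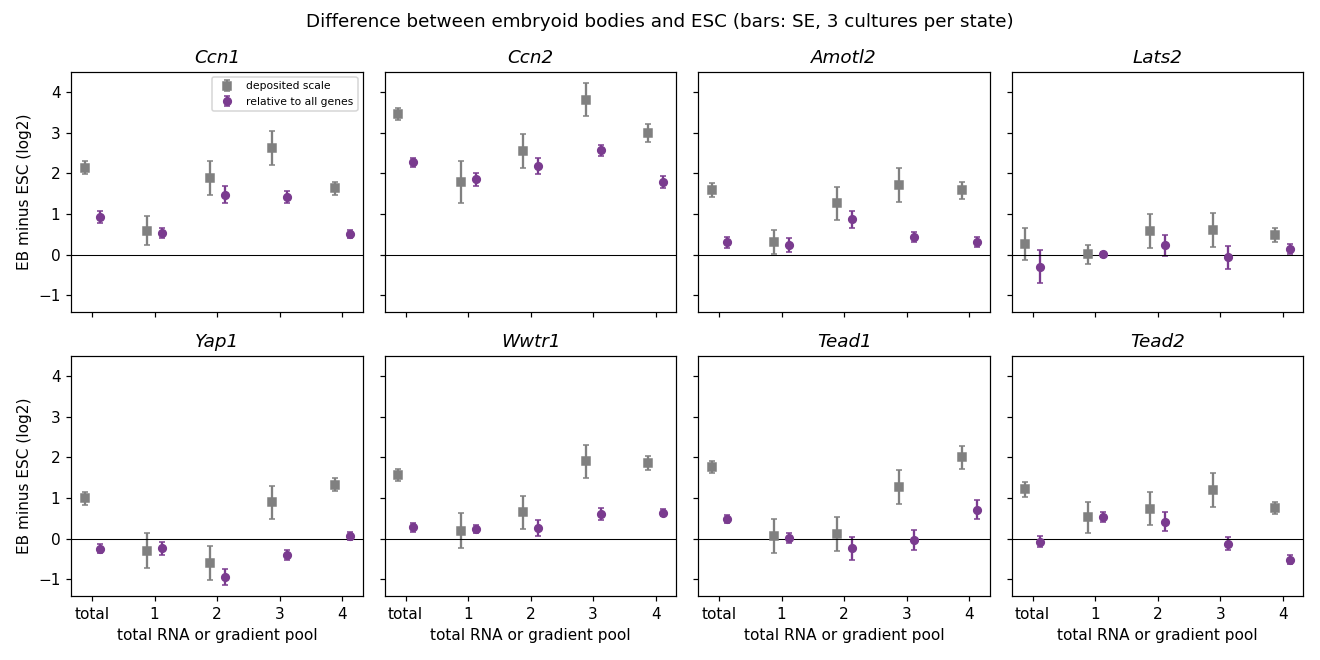
EB minus ESC (log2, with SE, 3 cultures per state) of each gene in total RNA and pools 1 to 4, as deposited (grey squares) and relative to all genes (purple circles). Ccn2 lies between 1.79 and 2.57 relative to all genes over total RNA and the 4 pools, while Yap1 reaches -0.94 in pool 2 and Tead2 goes from 0.54 in pool 1 to -0.51 in pool 4.

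Tead2 was highest in pool 2 in all 6 cultures on both scales, and the states differed in the outer pools relative to all genes. Its pool 2 signals were 609, 419 and 685 in ESC and 1105, 644 and 1226 in EB. In pool 4 they were 209, 189 and 163 in ESC and 326, 322 and 360 in EB. Relative to all genes, pool 4 was the lowest pool of Tead2 in all 3 EB cultures and pool 1 in all 3 ESC cultures. The difference between the states was 0.54 ± 0.13 in pool 1 (adjusted p = 0.048) and -0.51 ± 0.11 in pool 4 (adjusted p = 0.00901), where the deposited scale gave 0.75 ± 0.16, higher in EB. The pool 4 call held with any culture left out and was lost with median centring (-0.25, adjusted p = 0.102); the pool 1 call was lost without any culture but EB replicate 1 (adjusted p up to 0.139) and with the replicate block (adjusted p = 0.0678).

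To set the pools against each other in 1 number, a pool ratio was formed for each culture by subtracting a gene's mean log2 value in pools 1 and 2 from that in pools 3 and 4. It compares array signals and not amounts of mRNA, since each array received the same mass of RNA. Tead2 had pool ratios relative to all genes of 0.06, -0.22 and 0.11 in ESC and -0.78, -0.66 and -1.0 in EB, with EB below ESC throughout (14.9% of all genes). It fell by 0.80 ± 0.16 (adjusted p = 0.0136), the only call among the 8 genes, where 5.21% of all genes were called lower. The call was lost without ESC replicate 1, 2 or 3 (adjusted p = 0.0592, 0.0513 and 0.057) and held without each EB replicate, at -0.71 without EB replicate 3. It was also lost with an offset of 1 (-0.89, adjusted p = 0.0814) and with median centring (-0.47, adjusted p = 0.0579). The Tead2 difference as deposited was 0.34 ± 0.24 (adjusted p = 0.2), with EB values above ESC values, so its direction turned with the scale. Within EB the Tead2 ratio was below 0, at -0.81 ± 0.12 (adjusted p = 0.000122), and within ESC it was -0.02 ± 0.12 (adjusted p = 0.93).

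Tead1, the other TEAD gene of the set, lay the other way. Its pool ratios relative to all genes were 0.69, -0.06 and 0.27 in ESC and 0.98, 0.90 and 0.41 in EB, and the states overlapped (difference 0.46 ± 0.21, adjusted p = 0.201). Within EB it was above 0, at 0.76 ± 0.15 (adjusted p = 0.00147), and within ESC it was 0.30 ± 0.15 (adjusted p = 0.155). Tead1 minus Tead2, in which array scaling nearly cancels, was 0.64, 0.15 and 0.23 in ESC and 1.77, 1.52 and 1.34 in EB on the deposited scale. The means, 0.34 ± 0.26 (SD, n = 3) and 1.55 ± 0.21, differed by 1.21, with no overlap; the two-sided exact permutation p was 0.1, the smallest that 3 against 3 allows, and 0.3 after adjustment over the 3 pairs compared. Without EB replicate 3 the means differed by 1.31. The same difference for Yap1 minus Wwtr1 was 0.09 (exact permutation p = 0.6, adjusted 0.6), with values of 0.74 to 1.07 in ESC and 0.78 to 1.19 in EB. For Ccn2 minus Ccn1 it was 0.35 (exact permutation p = 0.3, adjusted 0.45). Without EB replicate 3 these became -0.03 and 0.45.

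Relative to all genes, Yap1 and Wwtr1 were highest in different pools. Yap1 had pool ratios relative to all genes of 0.46, 0.51 and 0.65 in ESC and 1.01, 0.70 and 1.08 in EB. Both means were above 0, 0.54 ± 0.11 in ESC (adjusted p = 0.003) and 0.93 ± 0.11 in EB (adjusted p = 3.7e-05), also with any culture left out. Wwtr1 had -0.42, -0.39 and -0.53 in ESC, a mean below 0 (-0.45 ± 0.11, adjusted p = 0.00631, and 0.0537 without ESC replicate 3), and 0.06, -0.12 and -0.16 in EB (-0.08 ± 0.11, adjusted p = 0.597). Neither difference between the states passed the test, at 0.39 ± 0.16 for Yap1 (adjusted p = 0.148) and 0.37 ± 0.15 for Wwtr1 (adjusted p = 0.139), although EB and ESC values did not overlap for either (16.1% of all genes had EB above ESC in this way). On that scale pool 4 was the highest pool of Yap1 and pool 1 that of Wwtr1 in all 6 cultures. The deposited signals did not part them in this way: pool 2 was the highest in 2 of 3 ESC cultures for both genes, and in EB Wwtr1 was highest in pool 3 in all 3 cultures and Yap1 in pool 3 in 1 and in pool 4 in 2.

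The targets did not change their pool ratio detectably relative to all genes. The differences were -0.11 ± 0.19 for Ccn1 (adjusted p = 0.755), 0.17 ± 0.15 for Ccn2 (adjusted p = 0.523), -0.17 ± 0.19 for Amotl2 (adjusted p = 0.624) and -0.07 ± 0.19 for Lats2 (adjusted p = 0.869). Without EB replicate 3 they were -0.17, 0.23, -0.12 and 0.10, and those of Yap1, Wwtr1 and Tead1 were 0.31, 0.42 and 0.64, none called. Within ESC, 2 of 8 genes were called above 0 (Amotl2 and Yap1; 16.6% of all genes) and 2 below (Ccn2 and Wwtr1; 16.1%). The Ccn2 ratio in ESC was -0.37 ± 0.11 (adjusted p = 0.0184), a call lost without any 1 of the ESC replicates (adjusted p up to 0.126). The Amotl2 ratio in ESC was 0.54 ± 0.14 (adjusted p = 0.00879), lost without ESC replicate 1 or 3 (adjusted p up to 0.092). Within EB, Yap1, Tead1 and Amotl2 were called above 0 (23.3%) and Tead2 below (19.2%). The Amotl2 ratio in EB was 0.37 ± 0.14 (adjusted p = 0.0454), a call kept only without ESC replicate 2.

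On the deposited scale the median difference in the ratio over all genes was 0.73, and 64.5% of genes were called higher. Of the 8 genes, 6 were called higher: Yap1 by 1.55, Tead1 by 1.55, Wwtr1 by 1.47, Ccn2 by 1.24, Ccn1 by 0.89 and Amotl2 by 0.87, each ± 0.24, with adjusted p from 8.83e-10 for Yap1 to 0.000644 for Amotl2. Lats2 (0.25) and Tead2 (0.34) were not called, and all 3 EB values lay above all 3 ESC values for 7 of 8 genes, all but Lats2 (65.7% of all genes). Scaling arrays to a common mean before the offset ended the calls of Ccn2 (0.44, adjusted p = 0.124), Ccn1 (0.16, adjusted p = 0.65) and Amotl2 (0.03, adjusted p = 0.937), and left Yap1, Wwtr1 and Tead1 called at 0.63, 0.66 and 0.69. Without EB replicate 3 all 6 were still called, at 0.85 for Ccn1 to 1.74 for Tead1, and Lats2 was called too (0.61, adjusted p = 0.0192). Within ESC on this scale Amotl2 was called above 0 (7.02%) and Ccn2 and Wwtr1 below (18.4%); within EB the same 6 genes that were called between the states were called above 0 (60.3%). The SE here is the same for every gene, because limma moved each gene's variance fully to the common value, so that a wide spread among the cultures of 1 gene does not enter its p.

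**Figure D3:**
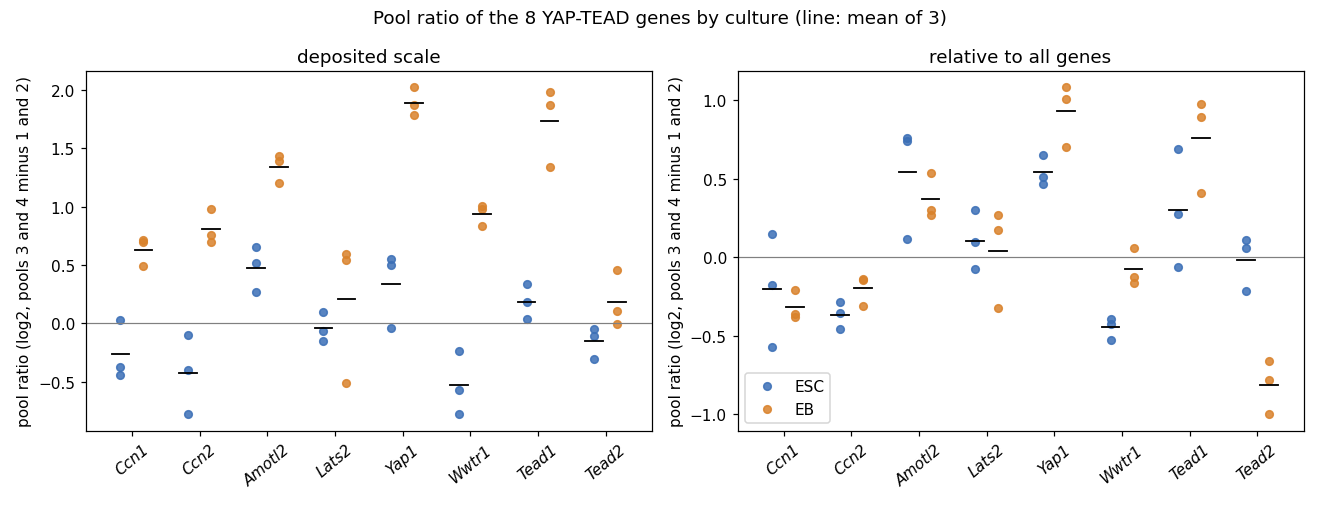
Pool ratio (log2, mean of pools 3 and 4 minus mean of pools 1 and 2) of each culture, ESC in blue and EB in orange, with a line at the mean of 3, as deposited (left) and relative to all genes (right). Relative to all genes the EB values of Tead2, from -1.0 to -0.66, lie below its ESC values, while those of Yap1, from 0.70 to 1.08, lie above.

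**Figure D4:**
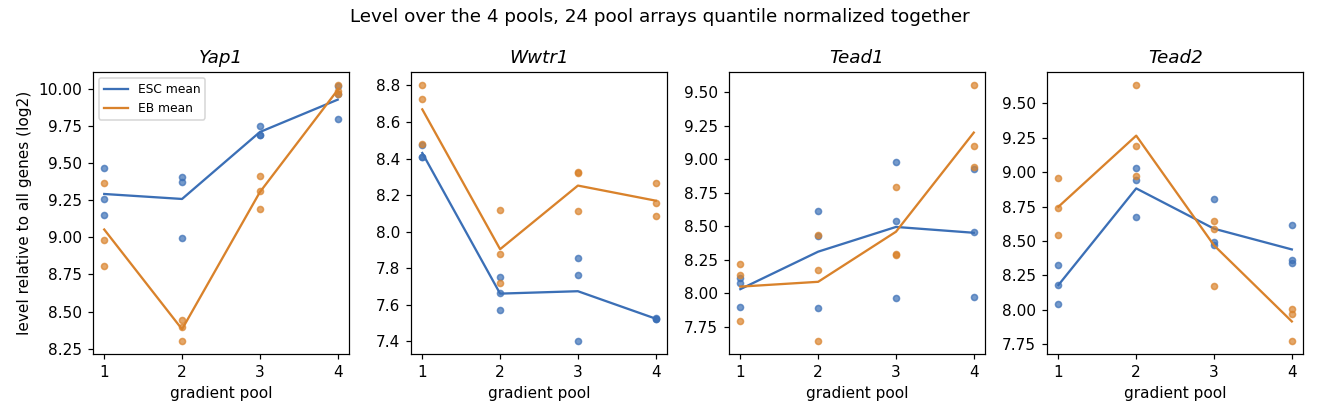
Level relative to all genes (log2, 24 pool arrays normalized together) of the coactivators and TEAD genes over pools 1 to 4, with 1 point per culture and lines through the means. In EB, Tead1 climbs from 8.05 in pool 1 to 9.20 in pool 4 and Tead2 goes from 9.27 in pool 2 to 7.92 in pool 4.

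With the 24 pool arrays normalized together, the mean level of Yap1 in EB was 8.38 ± 0.07 (log2, SD, n = 3) in pool 2 and 9.99 ± 0.03 in pool 4, against 9.26 ± 0.23 and 9.93 ± 0.11 in ESC. The states met in pool 4 and were apart in pool 2. Tead1 in EB went from 8.05 ± 0.22 in pool 1 to 9.20 ± 0.32 in pool 4, and in ESC from 8.03 ± 0.11 to 8.45 ± 0.48. Wwtr1 was at 8.43 ± 0.04 in ESC pool 1 and 7.52 ± 0.003 in ESC pool 4, and at 8.67 ± 0.17 and 8.17 ± 0.09 in EB. Ccn1 was highest in pool 2 in all 3 EB cultures relative to all genes, and in pool 3 in all 3 on the deposited scale.

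The rest of the pathway was taken from lists. Of the 24 genes listed for the Hippo kinase cascade and its upstream regulators, 20 were tested; 1 was called higher and 1 lower in total RNA relative to all genes, near the shares over all genes (6.57% and 6.1%), with a median difference of -0.04. Mob1b, a LATS coactivator, rose by 0.61 ± 0.14 (adjusted p = 0.0307), and Stk4, the MST1 kinase, fell by 0.51 ± 0.11 (adjusted p = 0.0272). The Mob1b call was lost without ESC replicate 1 or 3 or EB replicate 1 or 2 (adjusted p up to 0.101), and the Stk4 call with any culture left out (adjusted p = 0.0595 to 0.0897). As deposited, all 20 were called higher (78.9% of all genes), Stk4 by 0.73. Of 6 other TEAD and VGLL cofactor genes, 5 were tested and Vgll3, a TEAD cofactor, fell by 0.73 ± 0.11 relative to all genes (adjusted p = 0.0114) and was at -0.18 as deposited, not called. Tead4, the trophectoderm factor, differed by 0.32 ± 0.19 (adjusted p = 0.314) and Tead3 by -0.05 ± 0.12 (adjusted p = 0.803). None of the 4 other CCN genes listed (Ccn3 to Ccn6) passed the filter on low probe sets.

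Of 17 further genes of a published YAP target signature, 12 were tested, with a median difference of 0.18 in total RNA relative to all genes. Crim1, a transmembrane regulator of BMP signalling, rose by 0.82 ± 0.14 (adjusted p = 0.0132, and up to 0.0582 without EB replicate 1 or 2), and Igfbp3, an IGF-binding protein, fell by 0.90 ± 0.10 (adjusted p = 0.00403) but was at 0.27 as deposited, not called; the other 10 did not pass the test. Relative to all genes Crim1 was thus the only signature gene called higher (6.57% of all genes) and Igfbp3 the only one called lower (6.1%). As deposited, all of the 12 but Igfbp3 and Tgfb2 were called higher (78.9% of all genes). Ankrd1 and Axl, other common YAP readouts, were below the filter on low probe sets. Ccn1 and Ccn2 are also targets of SRF, and of 21 SRF targets and immediate-early genes 19 were tested, with 5 called higher (6.57% of all genes) and 4 lower (6.1%) and a median of 0.13. Jun, a subunit of AP-1, rose by 2.09 ± 0.26 (adjusted p = 0.00568) and Dusp1, a MAP kinase phosphatase, by 1.21 ± 0.13 (adjusted p = 0.0038). Junb, another AP-1 subunit, fell by 1.64 ± 0.14 (adjusted p = 0.00208), and Tagln, a smooth muscle actin-binding protein, by 1.31 ± 0.27 (adjusted p = 0.0266), a call kept only without EB replicate 1. As deposited, 15 of these 19 were called higher (78.9% of all genes) and 1 lower, Junb (0.325%).

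In the pool ratio relative to all genes, 5 of the 20 Hippo cascade genes rose in EB and none fell (4.21% and 5.21% of all genes), with a median of 0.26. Mob1a, a LATS coactivator, rose by 1.02 ± 0.18 (adjusted p = 0.00865, and 0.89 without EB replicate 3), and Wwc1, the scaffold KIBRA, by 0.69 ± 0.17 (adjusted p = 0.0255). With 1 culture left out, the Wwc1 call was kept only without EB replicate 2. Both calls were lost with an offset of 1 (adjusted p = 0.0795 and 0.0955), with all probe sets (0.0556 and 0.0663) and with the ratio of pool 4 to pool 1 (0.112 and 0.106). The others were Frmd6, Map4k4 and Ajuba, at 0.60, 0.58 and 0.55, which were not run under the alternatives. None of the 5 other TEAD and VGLL genes or the 12 signature genes passed the test. Of the 19 SRF and immediate-early genes, 3 rose and none fell, with a median of 0.02; Jun rose by 1.06 ± 0.18 (adjusted p = 0.00693) and Klf6, a zinc finger factor, by 0.93 ± 0.16 (adjusted p = 0.00715), and by 0.89 and 0.96 without EB replicate 3. An offset of 1 ended both calls (adjusted p = 0.0754 and 0.0684), and all probe sets ended that of Jun (adjusted p = 0.0505).

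**Figure D5:**
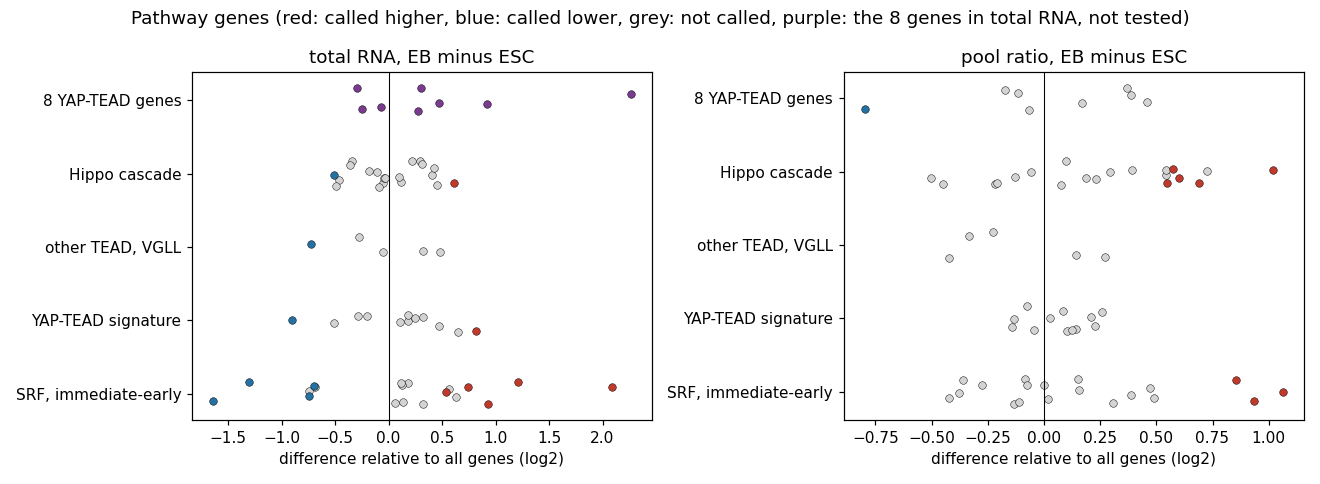
EB minus ESC relative to all genes (log2) of the tested genes of each list, in total RNA (left) and in the pool ratio (right), with 1 point per gene, red for called higher, blue for called lower, grey for not called, and purple for the 8 genes in total RNA, which were not tested. In total RNA the Hippo cascade calls are at 0.61 and -0.51, and among the SRF and immediate-early genes Jun is at 2.09 and Junb at -1.64.

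Markers of the cell types that the cultures could hold were measured in total RNA. All 9 pluripotency markers, Pou5f1, Nanog and Sox2 among them, passed the filter in both states, and their summed deposited signal was 28294 to 31178 in ESC and 52215 to 66970 in EB. After normalization to all genes, Klf4 fell by 1.69 ± 0.11 among them and Nanog rose by 0.53 ± 0.11 (adjusted p = 0.000742 and 0.0264). Of 9 fibroblast and feeder markers, 3 passed the filter and Col1a1, Col3a1, Postn, Dcn, Lum and Fap did not; the sum over the list was 141 to 203 in ESC and 259 to 325 in EB. Of 8 primitive and visceral endoderm markers, 7 passed (Afp did not), and 4 were called higher relative to all genes (6.57% of all genes), led by Dab2 (1.58 ± 0.16) and Ttr (1.51 ± 0.31), with sums of 84.1 to 134 in ESC and 686 to 885 in EB. Of 7 trophectoderm markers, 4 passed and Cdx2, Elf5 and Gata3 did not, with sums of 875 to 949 and 2200 to 2502; Tfap2c rose by 1.16 ± 0.15 and Krt8 fell by 1.52 ± 0.10. Of 8 mesoderm and endothelial markers, 6 passed, with sums of 109 to 149 and 554 to 621; Pecam1 rose by 1.04 ± 0.21 and Eomes by 0.74 ± 0.16. The part of the endoderm, trophectoderm and mesoderm markers in the CCN differences was not tested.

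Over the 30 arrays normalized together, which come from 6 cultures, the levels of Ccn1 and Ccn2 had a Pearson correlation of 0.90, and those of the 28 pairs of the 8 genes ran from -0.68 (Yap1 and Tead2) to this value. Yap1 was at -0.60 with Ccn1 and -0.43 with Ccn2, and Wwtr1 at 0.55 and 0.70. Ccn1 and Ccn2 led to the choice of the set by being higher in EB total RNA, which is among these arrays. The correlation of Ccn1 with Ccn2 and their nearest patterns therefore hold that state difference, and nothing is read from them. The genes with the most similar pattern to Ccn2 were Hmgb3 (0.95) and Slc25a20 (0.94), and to Ccn1 Gm4802 (0.92) and Nudt4 (0.90). For Yap1 they were Tmpo (0.90) and Prrc2b (0.90), and for Wwtr1 Msi2 (0.91) and Klf6 (0.91). Tead1 was nearest to Eif5 (0.86) and Nop58 (0.84), Tead2 to Rex1bd (0.90) and Smdt1 (0.88), Amotl2 to Gatad2a (0.82) and Plekhm1 (0.81), and Lats2 to Ipo13 (0.65) and Omg (0.63).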

How the data were processed

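Values were log2 signals as deposited by the authors, for 45101 probe sets; the submitters' processing notes name MAS5 and affy without version or role. From the values, arrays were scaled to spike-in RNAs, and pool arrays had a floor at which 18.2% to 59% of probe sets lay. Probe sets were named from the platform annotation, and 34945 had 1 symbol. Signals were made linear, 32 was added and log2 taken. A filter then removed the dimmest 40% by mean value, which left 15 of the 20 probe sets of the 8 genes (not 2 of Ccn1 and 3 of Lats2). Each gene was represented by its brightest remaining probe set, averaged over 30 arrays, which gave 13240 genes, all 8 among them. Other probe sets come from a fit on all of them. The two-sided comparisons of the states (n = 3 each) used lmFit and eBayes of limma 3.58.1 under R 4.3.3. P-values were adjusted by Benjamini-Hochberg over 13240 genes, and genes with an adjusted p under 0.05 are called. The smallest SE equals the largest in the deposited pool ratio, pool 2 and pool 3 fits. The fits were tested on simulated data. Single pairs were compared with exact permutation tests. The number of arrays limits precision, and p-values measure the spread between the labels' biological replicates. In the deposited pool ratio, pool 2 and pool 3 fits that spread is common to all genes and not each gene's own.

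Same-numbered ESC and EB arrays deviated together from their group means: the 3 correlations over genes were 0.54, 0.32 and 0.34 for pool 1, and for pool 2 they were 0.34, 0.14 and 0.15. Every pair exceeded 0.1 there, while total RNA (0.02 to 0.04), pools 3 and 4 and the pool ratio had a pair at or below 0.1. The floor of the pool arrays also followed the replicate number, in every pool of both states. It was 3.8, 2.93 and 3.35 (log2) for replicates 1, 2 and 3. Same-numbered pool arrays of the 2 states thus had something in common, which the labels, giving only shared numbers, do not name. The main fits hold no replicate block, which was run as an alternative. The 8 genes and all gene lists were chosen with earlier results of these data known. The text names all 8 genes, up to 2 called genes per list with the largest change each way, and each gene's 2 nearest patterns. Tead3, Tead4, Tgfb2, Ankrd1, Axl, Frmd6, Map4k4 and Ajuba were named after their values were seen. Alternatives were the replicate block, each culture left out, an offset of 1, no filter, all probe sets, other scalings, and a ratio of pool 4 to pool 1. No genome was used; promoter sequences are RefSeq's.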

Additional observations from a re-analysis of the deposited data

Results flagged for a closer look

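The contrast between pools 3 and 4 and pools 1 and 2 differed between ESC and EB by a test of the difference itself in 11 results. Relative to all genes, Tead2 was at -0.80 (log2), with a mean pool ratio of -0.02 in ESC and -0.81 in EB. Mob1a was at 1.02, Wwc1 at 0.69, Jun at 1.06 and Klf6 at 0.93. On this scale 4.21% of all genes were called higher and 5.21% lower. An offset of 1 ended the calls of Tead2, Mob1a, Wwc1, Jun and Klf6. The Tead2 call was also lost without any 1 of the ESC replicates, and the Wwc1 call without any culture but EB replicate 2. On the deposited scale, where 64.5% of all genes were called higher, the values were 0.89 for Ccn1, 1.24 for Ccn2, 0.87 for Amotl2, 1.55 for Yap1, 1.47 for Wwtr1 and 1.55 for Tead1.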

How the results depend on the processing

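Counts are of the 8 genes called, except in total RNA, where they are of all genes. In total RNA on the deposited scale (10493 called), scaling arrays to one mean signal before the offset gave 2194, all probe sets gave 19197, and leaving out a culture 9873 to 10574. In total RNA relative to all genes (1678 called), median centring gave 4377, an offset of 1 gave 1046, all probe sets 945, the replicate block 638, and leaving out a culture 569 to 953. For the pool ratio EB minus ESC relative to all genes (1 called), an offset of 1 gave 0, median centring 3 (Yap1, Wwtr1 and Tead1, at 0.75, 0.66 and 0.74, and not Tead2), and leaving out a culture 0 to 1. For that ratio on the deposited scale (6), scaling before the offset gave 3, and leaving out a culture 6 to 7. Within ESC on the deposited scale (3), an offset of 1 and the ratio of pool 4 to pool 1 gave 0, all probe sets 1, and leaving out a culture 0 to 3; relative to all genes (4), leaving out a culture gave 1 to 4. Within EB, leaving out a culture gave 6 to 7 on the deposited scale and 3 to 4 relative to all genes. In pool 1 relative to all genes (3), the replicate block, an offset of 1, no filter, all probe sets and median centring each gave 1, and leaving out a culture 1 to 2; on the deposited scale (0), scaling before the offset gave 1, and leaving out a culture 0 to 1. In pool 2 on the deposited scale (2), the replicate block gave 4, no filter and all probe sets 0, and leaving out a culture 2 to 3; relative to all genes (4), an offset of 1 and all probe sets gave 2, the replicate block 3, and leaving out a culture 1 to 4. In pool 3 relative to all genes (5), an offset of 1 gave 2, no filter and all probe sets 3, and leaving out a culture 2 to 3; in pool 4 (5), all probe sets gave 3, and leaving out a culture 4 to 5. On the deposited scale, leaving out a culture gave 4 to 7 in pool 3 and 7 to 8 in pool 4. With arrays scaled before the offset, Tead2 reversed on the deposited scale to -0.00915 in pool 3 and -0.36 in pool 4, and Stk4 in total RNA to -0.38. The causes were not tested, beyond the fewer samples left in a fit. Tead2's pool 4 call relative to all genes was lost with median centring (-0.25). The Ccn2 calls in pools 1 to 4 relative to all genes kept their direction and side of the threshold under every alternative run. Ccn2 led to the choice of the set in the same cultures, so nothing is read from these calls. The replicate block changed no other count by over 1.5 times. With 3 arrays per group, differences of over 2 SE could miss the threshold (Yap1 pool ratio, 0.39 ± 0.16), and Lats2 was limited by the floor.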
